A study of Mus musculus with 96 samples.

Results

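Fatty acid oxidation and ketogenesis in mouse liver were followed through 37 genes, listed by symbol from general knowledge of the pathway and not by any measured level. All 37 were found among the 35670 genes with any count in the liver table, and all 37 passed the filter on low counts, as did 18326 genes in all. Long-chain fatty acids enter mitochondria through the carnitine shuttle and are shortened there by rounds of beta-oxidation, whose electrons pass to the respiratory chain through electron transfer flavoprotein. Peroxisomes shorten the chains that mitochondria handle poorly, and the acetyl-CoA made in liver during fasting is turned into ketone bodies for other organs. The nuclear receptor PPARA, which binds fatty acids, switches on most of these genes in hepatocytes, with the coactivator PPARGC1A and the fasting-responsive factor CREB3L3 acting beside it.

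The livers came from mice aged 12 to 16 weeks. Wild types (WT) and knockouts (KO) were taken from both a Bmal1 line and a Cry line. BMAL1 is the activator of the circadian clock and the CRY proteins are its repressors, and the Cry knockout is labelled as lacking both Cry1 and Cry2. Food was either always present (ad libitum, AL) or given on a restricted schedule (RF, read here as restricted feeding). The 96 libraries fall into 8 groups of 12: Bmal1 WT and KO under AL, Bmal1 WT and KO under RF, Cry WT and KO under AL, and Cry WT and KO under RF, written as Bmal1 WT AL and so on. Each group has 2 libraries at each of 6 times of day 4 h apart, given as zeitgeber time (ZT, in h, with lights on at ZT0), and each is made of 2 numbered replicate series of 6 libraries, such as series 1 and series 8 of Bmal1 WT AL. The labels used here name no strain and do not say whether the deletions are confined to the liver. They also do not tie a library to an animal, so every p-value below measures the spread between libraries. The design asks how clock genotype, meal schedule and time of day each set these transcripts.

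Libraries held between 1478963 and 35568856 counts (median 25422366), and the 3 shallowest libraries were 1 each of Cry KO RF, Cry KO AL and Bmal1 KO RF. Another 7 libraries stood apart by more than 5000 CPM of Saa1, 50 CPM of Isg15 or 40 CPM of Ctrb1, of which 2 were from Bmal1 KO RF, 2 from Cry KO RF, 2 from Cry WT AL and 1 from Cry WT RF. CPM are counts after scaling for library size. Hepatocyte markers were abundant in all 8 groups, with 6 genes summing to at least 29110 CPM in every library, while the 3 skeletal muscle markers had medians from 0 to 0.0386 CPM and reached 102.5, 77.2 and 6.29 CPM in single libraries of Bmal1 WT RF, Bmal1 KO AL and Bmal1 KO RF. In Bmal1 KO AL that hepatocyte sum was 29110 to 49060 CPM, below all Bmal1 WT AL libraries (68630 to 121000 CPM). The 6 genes did not move alike between these groups. On the log2 scale, KO against WT, Alb was at −1.78, Ttr at −0.55, Apoa1 at −0.29 and Tat at −0.20. Cps1 was at 0.26 and Serpina1c at 0.05. Counts over the whole of a deleted gene can include exons outside the deleted stretch, so they were not used to check the genotype labels. In these bulk samples, fewer cells of a type and less RNA per cell cannot be told apart.

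Levels can be compared between genes only per length of exon. Over all 96 libraries Fabp1, the liver fatty acid-binding protein, had the highest mean at 3683 CPM per kb, followed by the mitochondrial thiolase Acaa2 at 496.9 and the peroxisomal thiolase Acaa1b at 313.3 CPM per kb. At the low end, the pyruvate dehydrogenase kinase Pdk4 stood at 5.33, Ppargc1a at 1.92, and the thioesterases Acot3 and Acot2 at 1.73 and 1.63 CPM per kb. Some members share sequence with other genes, so their counts are less certain. Of its 100-base stretches, Etfb shares 35.8% with Gm45233, which covers 53% of its exons, Acaa1b shares 19.3% with Acaa1a, and Acot2 shares 17.1% with Acot1. Of the exons of Acadvl, 42.9% overlap Dvl2 on the opposite strand.

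RefSeq promoter windows (GRCm38.p6, 250 bases before to 50 bases after a start) were matched for 33 of the 37 genes, giving 36 windows. Both strands were searched for the E-box CACGTG, which CLOCK and BMAL1 bind, for 2 copies of AGGNCA in the same direction with 1 base of any kind between them (DR1, the kind of element PPARA binds), for TTACGTAA and TTATGTAA (D-boxes) and for AANT followed by AGGTCA (a ROR element). The E-box was present in 1 of the 36 windows (2.78%), against 7.15% of all 32851 windows, and the DR1 in 1 of 36, against 0.381%. The remaining motifs matched none of the 36 windows, and their shares over all windows were 0.119%, 0.938% and 0.219%. The windows that matched belong to Acot4 and Fabp1, and the 250 bases before their starts are shown, with the match in capitals, because no other member's window held one. That of Acot4 lies at chr12:84038129-84038378 on the plus strand, with the E-box starting 66 bases before the start. That of Fabp1 lies at chr6:71199629-71199878 on the plus strand, with the DR1 read from the minus strand and starting 67 bases before the start.
Acot4: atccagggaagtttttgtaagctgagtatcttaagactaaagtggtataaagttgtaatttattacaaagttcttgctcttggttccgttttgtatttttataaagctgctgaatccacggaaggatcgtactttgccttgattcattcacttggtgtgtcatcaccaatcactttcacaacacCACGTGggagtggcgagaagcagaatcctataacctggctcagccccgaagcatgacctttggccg
Fabp1: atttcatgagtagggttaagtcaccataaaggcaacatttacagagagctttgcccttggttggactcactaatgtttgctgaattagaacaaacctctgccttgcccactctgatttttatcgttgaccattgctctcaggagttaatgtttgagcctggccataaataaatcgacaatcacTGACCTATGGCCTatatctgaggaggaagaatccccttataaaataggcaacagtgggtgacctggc

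The series of a group mostly overlapped, with Cry KO AL as the exception. There, 17 of the 37 members had ranges that did not overlap between series 1 and series 2, as had 26.9% of all genes tested. No member did so in Bmal1 WT AL, Bmal1 WT RF, Bmal1 KO AL, Bmal1 KO RF, Cry WT RF or Cry KO RF (all genes: 2.26%, 0.677%, 2.99%, 1.06%, 0.327% and 0.666%), and 1 member, Vnn1, did so in Cry WT AL (1.18%). In Cry KO AL series 2, 30 of 37 members were above series 1, by a median of 0.37 on the log2 scale. Etfb was at 31.1 to 46.1 CPM in series 2 and 9.55 to 12.3 CPM in series 1, Fabp1 at 3124 to 5620 and 1235 to 2422 CPM, Cd36 at 3.52 to 15.5 and 26.9 to 36.5 CPM, and Ppara at 47.4 to 81.6 and 132 to 159 CPM. Cell type markers moved with the series too. In series 2 the 4 endothelial markers summed to 41.8 to 77.5 CPM (series 1: 185 to 197), the 4 stellate markers to 91.6 to 168 (214 to 265), the 5 Kupffer cell markers to 76.0 to 185 (253 to 533) and the 6 hepatocyte markers to 74700 to 125500 (57200 to 81710). Their part in the member levels was not tested, so counts of called members in Cry KO AL comparisons are also given with single series left out. Values of members not called there come from both series together.

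**Figure D1:**
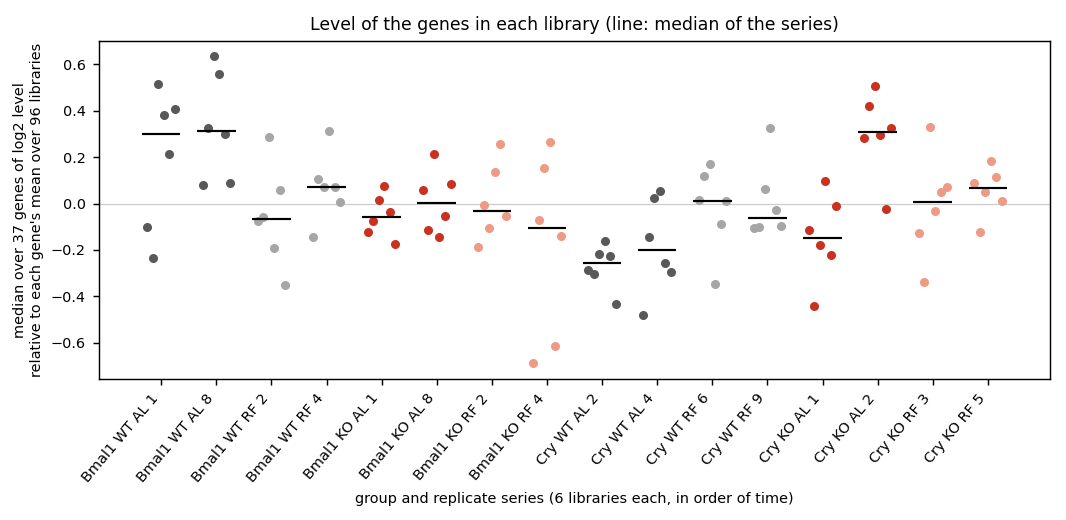
Median over the 37 members of each gene's log2 level relative to its mean over all 96 libraries (y axis, log2), for each library, by group and replicate series (x axis). The 6 libraries of Cry KO AL series 2 have a median of 0.31 and those of series 1 a median of −0.15, while both series of Bmal1 WT AL have medians near 0.30.

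Under AL, members from most steps of the pathway were lower without BMAL1, and Pdk4 was higher. Of the 37 members, 16 were lower and 3 higher in Bmal1 KO AL than in Bmal1 WT AL, where 9.48% and 10.9% of all genes tested were lower and higher. The median member stood at −0.29 on the log2 scale and the median gene at 0.02. Folds are differences of log2 levels averaged over the 6 times, with SE, and adjusted p-values come from quasi-likelihood tests in edgeR, adjusted over all genes tested by the Benjamini-Hochberg method. By role, the members called lower were 1 of 3 regulators, 2 of 3 genes of uptake and carnitine import, 2 of 3 of the carnitine shuttle, 4 of 9 of mitochondrial beta-oxidation, 2 of 4 isomerases and reductases, 2 of 4 peroxisomal genes and 3 of 4 thioesterases. Those higher were Cd36, Etfdh and Pdk4.

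Among the regulators, Creb3l3 ranged from 264.3 to 446.9 CPM (median 313.8) in Bmal1 WT AL and from 199.2 to 286.5 CPM (median 233.5) in Bmal1 KO AL, a fold of −0.45 ± 0.09 (adjusted p = 0.00027). The ranges overlapped. Ppara itself had medians of 112.6 and 83.9 CPM and did not pass the test (−0.35 ± 0.19, adjusted p = 0.201), nor did Ppargc1a (0.40 ± 0.19, adjusted p = 0.126). Cpt1a, the rate-limiting entry step of the carnitine shuttle, had medians of 324.2 and 286.1 CPM (−0.20 ± 0.12, adjusted p = 0.288). Among the shuttle genes Slc25a20, the carnitine-acylcarnitine carrier, fell by 0.60 on the log2 scale.

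Acaa1a and Acaa1b encode peroxisomal 3-ketoacyl-CoA thiolases and lie on chromosome 9 (mm10, 119339676 to 119350299 and 119148023 to 119157093). Acaa1a ran from 135.7 to 258.6 CPM (median 207.5) in Bmal1 WT AL and from 95.2 to 118 CPM (median 103.1) in Bmal1 KO AL. Its WT and KO ranges did not overlap, and its fold was −0.94 ± 0.11 (adjusted p = 8.97e-10). Acaa1b ran from 341.1 to 1569 CPM (median 984.2) in WT and from 271.6 to 600 CPM (median 412.5) in KO, and its fold was −1.19 ± 0.22 (adjusted p = 2.74e-05). Fabp1 (chromosome 6, 71199827 to 71205023) ran from 1523 to 4168 CPM (median 2651) and from 988.6 to 1637 CPM (median 1272), with a fold of −1.11 ± 0.22 (adjusted p = 0.000101). The lowest WT libraries of both genes lay within the KO range.

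The thioesterases Acot1 to Acot4, which split acyl-CoA esters, lie within chromosome 12 from 83987861 to 84060402. Acot3 ran from 0.134 to 53.9 CPM (median 5.90) in Bmal1 WT AL and from 0.124 to 1.46 CPM (median 0.391) in Bmal1 KO AL. Its lowest count before scaling was 2, in a library of Bmal1 WT AL. Its fold of −4.33 ± 0.55 (adjusted p = 1.24e-08) was the lowest of the 37 members, and it was −2.85 (adjusted p = 0.0486) without series 8 of Bmal1 WT AL, which holds the highest libraries. Acot4 ran from 16.1 to 116.1 CPM (median 51.9) and from 18.4 to 37.3 CPM (median 24.8), with a fold of −1.08 ± 0.21 (adjusted p = 7.12e-05), which without that series was −0.515 (adjusted p = 0.11). Acot1 was called at −1.08 ± 0.36 (adjusted p = 0.0269), but at −0.20 (adjusted p = 0.858) without it.

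Pdk4, which shuts pyruvate out of the citric acid cycle and is a PPARA target, moved the other way. It ran from 2.53 to 29.5 CPM (median 10.4) in Bmal1 WT AL and from 19.9 to 56.4 CPM (median 33.0) in Bmal1 KO AL, and was higher in KO at 6 of 6 times. Its fold was 1.77 ± 0.25 (adjusted p = 1.47e-07) and stayed between 1.41 and 2.41 with any single series left out. Cd36, a fatty acid translocase, had medians of 55.7 and 94.4 CPM (0.68 ± 0.25, adjusted p = 0.0461), a call that was lost without each of the 4 series in turn (highest adjusted p = 0.243). Etfdh, which passes electrons from electron transfer flavoprotein to ubiquinone, rose by 0.25 ± 0.08 (adjusted p = 0.0136), and lost its call without series 1 of Bmal1 WT AL (adjusted p = 0.159).

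Of the 19 calls, 8 stood without any single series: Creb3l3, Fabp1, Slc25a20, Decr2, Acaa1a, Acaa1b, Acot3 and Pdk4. These and Acot4 were the 9 called when the series was a random effect in limma-voom. Markers moved beside them: of the 6 hepatocyte markers, Alb (−1.78 ± 0.14, adjusted p = 3.26e-15) and Ttr (−0.55 ± 0.14, adjusted p = 0.00244) were lower, 2 of 4 cholangiocyte markers were higher, and 1 of 5 Kupffer cell and 1 of 3 erythroid markers were lower. The cholangiocyte markers summed to 28.4 to 72.8 CPM in WT and 43.0 to 98.2 CPM in KO, the erythroid markers to 81.7 to 236.8 and 47.6 to 116 CPM. Their part in the member folds was not tested.

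Under RF the Bmal1 knockout lowered 9 members and raised 6, against 8.35% and 10% of all genes tested. The median member was at −0.07. Without the libraries that stood apart 9 of the 15 were called, and with the series as a random effect Cd36, Fabp1, Acaa1a, Acaa1b, Etfdh and Pdk4, 6 in all, were. Fabp1 ran from 1208 to 3067 CPM (median 2419) in Bmal1 WT RF and from 273.4 to 1481 CPM (median 1006) in Bmal1 KO RF, a fold of −1.24 ± 0.22 (adjusted p = 1.71e-05). Acaa1b was at 420 to 1069 CPM (median 765.1) and 101.4 to 606.8 CPM (median 288.2), with a fold of −1.27 ± 0.22 (adjusted p = 8.92e-06), and Acaa1a fell by 0.70 ± 0.11 (adjusted p = 1.37e-06). Acot3 was at −2.18 ± 0.49 (adjusted p = 0.000583, and 0.206 with the series as a random effect) and Acot4 at −0.66 ± 0.21 (adjusted p = 0.0169). Pdk4 had 2.11 to 28.1 CPM (median 9.74) in WT and 19.6 to 73.0 CPM (median 43.0) in KO, and rose by 2.02 ± 0.25 (adjusted p = 6.42e-09). The WT and KO ranges of each of these genes overlapped.

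Ppara fell by 0.58 ± 0.19 on the log2 scale in Bmal1 KO RF (adjusted p = 0.0248), from a median of 131.2 to 95.0 CPM. Ppargc1a had medians of 12.1 and 14.99 CPM and a highest KO library of 75.2 CPM. Its fold of 0.75 ± 0.19 (adjusted p = 0.00221) rested on series 4 of Bmal1 KO RF, without which it was 0.08 (adjusted p = 0.916). Cd36 rose by 1.07 ± 0.26 (adjusted p = 0.00131), from a median of 53.2 to 109.9 CPM, and was at 0.824 to 1.53 with any series left out. Creb3l3 fell by 0.28 ± 0.09 (adjusted p = 0.027), and Cpt1a was not called (−0.15, adjusted p = 0.464). Etfdh (0.45 ± 0.08, adjusted p = 7.75e-06), Etfa (0.25, adjusted p = 0.0369) and Crot (0.38, adjusted p = 0.0439) were the other members that rose. Etfa encodes a subunit of electron transfer flavoprotein, and Crot the peroxisomal carnitine octanoyltransferase. Fabp1, Acaa1a, Acaa1b, Etfdh, Acot3 and Pdk4 were called without any single series. Ppara lost its call without series 4 of Bmal1 KO RF (adjusted p = 0.188), Creb3l3 without series 4 of Bmal1 WT RF (adjusted p = 0.15), Cd36 without series 4 of Bmal1 WT RF (adjusted p = 0.071), Acot4 without series 2 of Bmal1 WT RF (adjusted p = 0.125), Etfa without that series (adjusted p = 0.493), and Crot without series 2 of Bmal1 KO RF (adjusted p = 0.737). Of the 6 hepatocyte markers only Alb was called (−1.27 ± 0.14, adjusted p = 1.53e-10), and the sums were 43530 to 92570 CPM in WT and 32980 to 47650 CPM in KO. Of the other markers, 1 of 5 Kupffer cell, 2 of 4 B and T cell and 1 of 3 erythroid markers were lower, and 1 of 4 cholangiocyte markers was higher. Their part in the member folds was not tested.

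No member was called for a difference of the Bmal1 knockout effect between RF and AL. edgeR called 0 of 37 (0% of all genes), with 5 at an unadjusted p under 0.05, and DESeq2 and limma-voom called 0. The RF effect was above the AL effect for 34 of 37 members, with a median difference of 0.24 on the log2 scale. Acot3 was at 2.15 ± 0.74 (adjusted p = 0.69). The differences were −0.23 for Ppara, 0.35 for Ppargc1a, 0.16 for Creb3l3, 0.39 for Cd36, 0.05 for Cpt1a, −0.08 for Acaa1b and 0.25 for Pdk4, with adjusted p-values from 0.828 to 1.

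**Figure D2:**
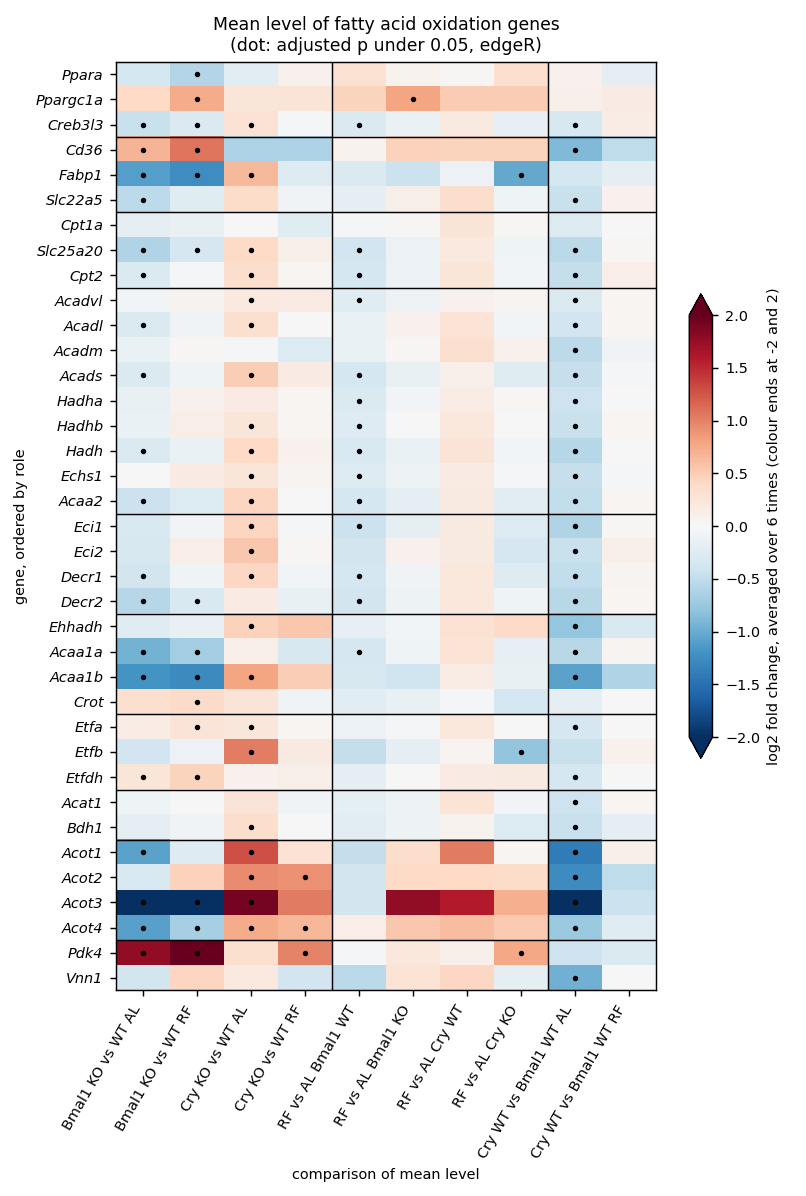
Log2 fold change (colour) of each of the 37 members (rows, by role) in 10 comparisons of mean level (columns), with a dot where the adjusted p is under 0.05. The column of Bmal1 KO AL holds 16 dots on lower members and 3 on higher ones, and that of Cry KO AL 23 dots, all on higher members.

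Under AL, oxidation genes were higher without the CRY proteins, and the count rested on 1 of the 2 series. In Cry KO AL, 23 of 37 members were higher and 0 lower than in Cry WT AL (15.7% and 11.7% of all genes tested), and the median member was at 0.33 against −0.06 for all genes. Without series 2 of Cry KO AL 2 members were called, Acot4 higher (0.82) and Acaa1a lower (−0.36), and the median was 0.09. Without series 1 of Cry KO AL 29 were called, with a median of 0.52. Without series 2 of Cry WT AL 5 were called. Fitting the compared groups alone gave 9 calls. The series as a random effect gave 1, Acads, and over all genes calls fell with it from 5021 to 1128. For the other fits named here, calls over all genes are not given. The called members were 1 regulator, 1 gene of uptake, 2 of the shuttle, 7 of 9 of mitochondrial beta-oxidation, 3 of 4 isomerases and reductases, 2 peroxisomal genes, 2 of electron transfer, 1 ketone body enzyme and all 4 thioesterases. None of the 23 calls stood in all 4 fits that left out a single series.

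Acot3 had the highest fold in Cry KO AL (1.91 ± 0.47, adjusted p = 0.00172), with 0.291 to 6.40 CPM (median 1.497) in Cry WT AL and 0.328 to 21.6 CPM (median 4.40) in Cry KO AL. Without series 2 of Cry KO AL its adjusted p was 0.0594. Acot1 followed at 1.29 ± 0.37 (adjusted p = 0.00678, medians 14.3 and 38.6 CPM), and its adjusted p was 0.363 without that series. Etfb, a subunit of electron transfer flavoprotein, was at 10.2 to 13.3 CPM (median 11.4) in WT and 9.55 to 46.1 CPM (median 21.7) in KO. Its fold of 1.02 ± 0.19 (adjusted p = 8.5e-05) became −0.10 (adjusted p = 0.804) without series 2. Acot2 was at 0.94 ± 0.25 (adjusted p = 0.00345) and lost its call without series 2 (adjusted p = 0.154). Acaa1b was at 0.79 ± 0.21 (adjusted p = 0.0044), with 266.4 to 700.1 CPM (median 433.4) in WT and 452 to 1110 CPM (median 808.5) in KO, and lost its call likewise (0.54, adjusted p = 0.268).

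Acads, the short-chain acyl-CoA dehydrogenase, ran from 112.1 to 137.3 CPM (median 123.5) in Cry WT AL and from 120.3 to 237.9 CPM (median 167.5) in Cry KO AL. It was called at 0.49 (adjusted p = 7.13e-05), and at 0.12 (adjusted p = 0.528) without series 2. Fabp1 was called at 0.65 (adjusted p = 0.0216) and stood at −0.14 (adjusted p = 0.895) without it. Creb3l3 was called at 0.29 ± 0.09 (adjusted p = 0.0159) and stood at 0.05 (adjusted p = 0.953) without it. Creb3l3 lies 4.0 Mb from Cry1 on chromosome 10, so an effect of a flanking chromosome segment and of the knockout cannot be told apart for it. Ppara (−0.23, adjusted p = 0.372), Ppargc1a (0.25, adjusted p = 0.332), Cpt1a (−0.01, adjusted p = 0.988), Cd36 (−0.61 ± 0.26, adjusted p = 0.0683) and Pdk4 (0.32, adjusted p = 0.344) were not called. Of the markers, 3 of 4 stellate and 1 of 5 Kupffer cell markers were lower, 1 of 6 hepatocyte markers was higher and 1 lower, and 2 of 4 cholangiocyte markers were higher and 1 lower. Higher too were 1 of 4 B and T cell and 1 of 3 neutrophil markers, and 1 of 3 erythroid markers was lower. Their part in the member folds was not tested.

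Under RF the Cry knockout changed few members. In Cry KO RF 3 were higher and 0 lower than in Cry WT RF (2.67% and 2.49% of all genes), with a median of 0.04. Pdk4 ran from 2.20 to 34.1 CPM (median 9.63) in WT and from 8.57 to 47.8 CPM (median 13.6) in KO, a fold of 0.9998 ± 0.25 (adjusted p = 0.00874) that lost its call without series 3 of Cry KO RF (0.706, adjusted p = 0.19). Acot2 (0.91 ± 0.25, adjusted p = 0.0194) lost its call without series 5 of Cry KO RF (adjusted p = 0.51). Acot4 (0.66 ± 0.21, adjusted p = 0.0489) lost its call without series 6 of Cry WT RF (adjusted p = 0.473). With the series as a random effect 0 of 37 were called. Ppara (0.08, adjusted p = 0.918), Ppargc1a (0.25, adjusted p = 0.565), Creb3l3 (−0.05, adjusted p = 0.9), Cpt1a (−0.24, adjusted p = 0.337), Cd36 (−0.61 ± 0.26, adjusted p = 0.19) and Acaa1b (0.49 ± 0.21, adjusted p = 0.213) were not called. Of the markers, 2 of 4 exocrine pancreas markers were higher in Cry KO RF, where the list summed to as much as 612.8 CPM in a library (WT: up to 0.496). Of 6 hepatocyte markers Apoa1 was lower (−0.63, adjusted p = 0.0235), as was 1 of 4 cholangiocyte markers. Their part in the member folds was not tested.

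The difference of the Cry knockout effect between RF and AL was called for 0 of 37 members in edgeR (3.93% of all genes), and 14 had an unadjusted p under 0.05. There were 5 calls with DESeq2 and 0 with limma-voom, and without series 1 of Cry KO AL edgeR called 23. The RF effect was below the AL effect for 32 members, with a median difference of −0.31. The differences were 0.32 for Ppara, 0.0046 for Ppargc1a, −0.34 for Creb3l3, −0.00093 for Cd36, −0.22 for Cpt1a, −0.30 for Acaa1b and 0.68 for Pdk4, with adjusted p-values from 0.13 to 1.

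**Figure D3:**
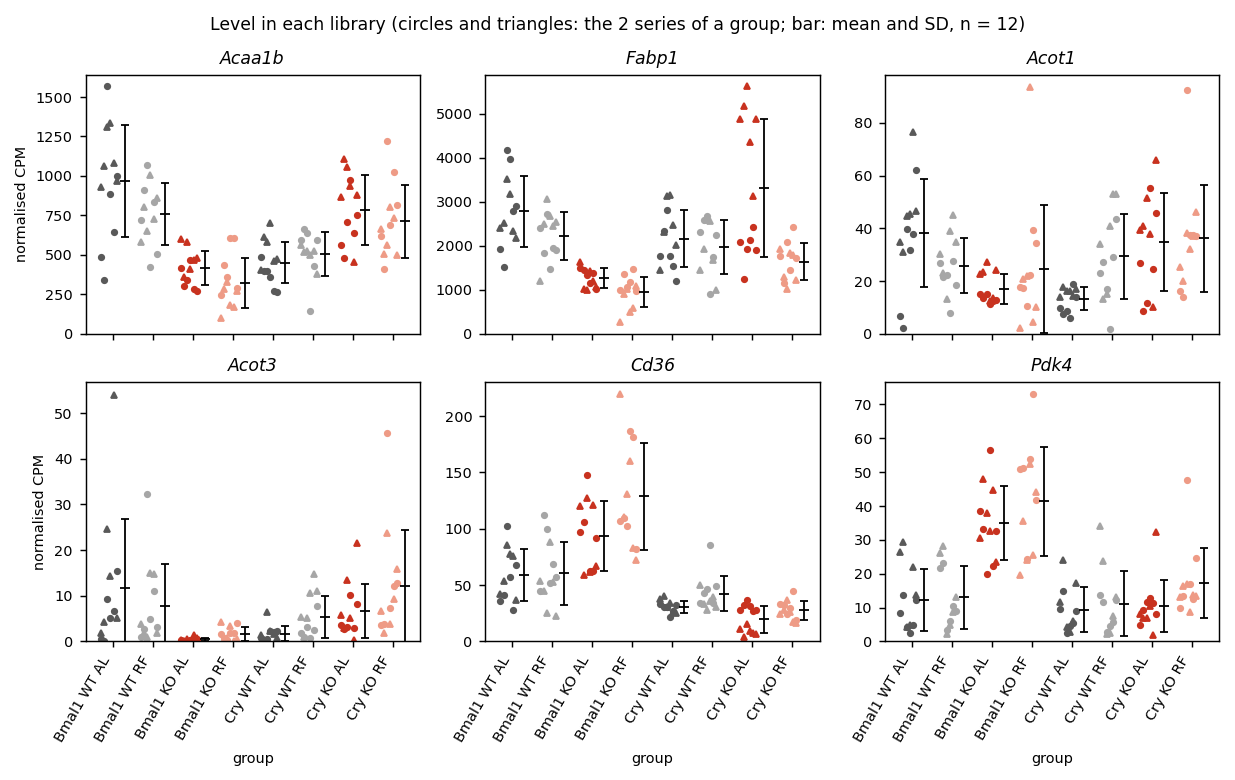
Level (CPM, linear axis from 0) of Acaa1b, Fabp1, Acot1, Acot3, Cd36 and Pdk4 in each of the 96 libraries, by group (x axis), with a bar for the mean and SD of the 12 libraries and circles and triangles for the 2 series. Pdk4 lies at 19.6 to 73.0 CPM in both Bmal1 KO groups and at 2.11 to 29.5 CPM in both Bmal1 WT groups, and Acot3 does not exceed 1.46 CPM in Bmal1 KO AL.

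The 2 knockouts share no libraries, and their effects under AL were compared directly, a test added after the data had been seen. The Cry effect minus the Bmal1 effect was called for 26 of 37 members, 24 above and 2 below, where 34.5% of all genes were called. The median difference was 0.69 over members and −0.08 over all genes. Over the 6 hepatocyte markers it was 0.617, with 3 higher and 1 lower. Lower too were 2 of 4 stellate, 1 of 4 endothelial and 1 of 4 cholangiocyte markers. Higher were 1 of 4 B and T cell and 1 of 3 erythroid markers. The part of these markers in the member differences was not tested. The 2 WT groups subtracted here differ themselves, with the median member at −0.46 in Cry WT AL against Bmal1 WT AL. Their part in the difference was not tested. Without series 2 of Cry KO AL 18 were called, all 18 among the 26, with a median of 0.38. With the series as a random effect 17 were called. Acot3 differed most (6.24 ± 0.72, adjusted p = 1.14e-09), followed by Acot1 (2.36 ± 0.52, adjusted p = 0.000327), Acaa1b (1.98 ± 0.30, adjusted p = 1.02e-06), Acot4 (1.83 ± 0.29, adjusted p = 2.43e-06) and Fabp1 (1.75 ± 0.31, adjusted p = 1.29e-05). Creb3l3 was at 0.74 ± 0.13 (adjusted p = 1.98e-05). Those below were Pdk4 (−1.45 ± 0.35, adjusted p = 0.00104) and Cd36 (−1.30 ± 0.36, adjusted p = 0.00402). Cd36 lost its call without series 2 of Cry KO AL (−0.699, adjusted p = 0.142), where Fabp1 was at 0.959 (adjusted p = 0.0153) and Creb3l3 at 0.489 (adjusted p = 0.00689). Acot1 was at 1.48 (adjusted p = 0.0335) without series 8 of Bmal1 WT AL. Ppara (0.12, adjusted p = 0.807), Ppargc1a (−0.15, adjusted p = 0.719) and Cpt1a (0.19, adjusted p = 0.451) were not called.

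Under RF the same difference was called for 9 members, 6 above and 3 below (13% of all genes), with a median of 0.08. Acot3 (3.21 ± 0.68, adjusted p = 0.000434), Acaa1b (1.75 ± 0.30, adjusted p = 1.74e-05), Acot4 (1.32 ± 0.29, adjusted p = 0.000762) and Cd36 (−1.69 ± 0.36, adjusted p = 0.000532) were called without any single series, and Acaa1b and Cd36 were the 2 called with the series as a random effect. Fabp1 (0.97 ± 0.31, adjusted p = 0.0242) and Ehhadh, the peroxisomal bifunctional enzyme (0.69, adjusted p = 0.0475), lost their calls without series 4 of Bmal1 KO RF (adjusted p = 0.239 and 0.248). Slc25a20 (0.46, adjusted p = 0.0474) lost its call without series 5 of Cry KO RF (adjusted p = 0.173). Pdk4 (−1.02 ± 0.35, adjusted p = 0.0439) lost its call without series 2 of Bmal1 KO RF (adjusted p = 0.336), and Etfdh (−0.33 ± 0.11, adjusted p = 0.0276) without series 2 of Bmal1 WT RF (adjusted p = 0.216). Ppara (0.67, adjusted p = 0.102), Ppargc1a (−0.50, adjusted p = 0.236), Creb3l3 (0.24, adjusted p = 0.275) and Cpt1a (−0.09, adjusted p = 0.861) were not called. The 6 hepatocyte markers had a median of 0.13, with 1 higher. Also higher were 2 of 4 B and T cell, 1 of 4 exocrine pancreas and 1 of 3 erythroid markers, and 1 of 4 cholangiocyte markers was lower. Their part in the member differences was not tested.

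Oxidation genes were called lower under RF than under AL in Bmal1 WT livers, by small amounts. There 0 members were higher and 14 lower under RF than under AL (6.67% and 7.2% of all genes tested), with a median of −0.29. This comparison shares the Bmal1 WT AL libraries with the Bmal1 knockout comparison under AL. Its AL libraries are series 1 and 8 and its RF libraries series 2 and 4, so feeding and replicate series cannot be told apart. The 14 were 7 of 9 genes of mitochondrial beta-oxidation, 3 of 4 isomerases and reductases, Slc25a20 and Cpt2 of the shuttle, Acaa1a and Creb3l3. Eci1, an enoyl-CoA isomerase, ran from 90.6 to 165.6 CPM (median 121.4) under AL and from 69.7 to 110.7 CPM (median 98.2) under RF, and fell by 0.44 ± 0.13 (adjusted p = 0.0237). The other lowest folds were those of Slc25a20 (−0.38, adjusted p = 0.0224), Decr2 (−0.37, adjusted p = 0.0218), Cpt2 (−0.36 ± 0.10, adjusted p = 0.0117) and Decr1 (−0.35, adjusted p = 0.0302), and Creb3l3 was at −0.30 ± 0.09 (adjusted p = 0.0295). None of the 14 calls stood in all 4 fits that left out a single series. With RLE size factors 7 were called, and with the series as a random effect 0, as over all 18326 genes tested. The largest adjusted p-values without a series were 0.218 for Eci1, 0.234 for Slc25a20, 0.222 for Decr2, 0.127 for Cpt2, 0.2 for Decr1 and 0.274 for Creb3l3. Ppara (0.30, adjusted p = 0.296), Ppargc1a (0.44 ± 0.19, adjusted p = 0.101), Cpt1a (−0.03, adjusted p = 0.942), Cd36 (0.06, adjusted p = 0.932), Pdk4 (−0.03, adjusted p = 0.991) and Acaa1b (−0.32, adjusted p = 0.324) were not called. Of the markers only 1 of 4 endothelial ones was called, lower under RF. The 6 hepatocyte markers, none of them called, had a median of −0.289, from −0.362 for Ttr to 0.157 for Tat. The part of these markers in the member folds was not tested.

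In the other 3 genotypes few members differed between AL and RF, which come from different replicate series there too. In Bmal1 KO only Ppargc1a was called, higher under RF (0.79 ± 0.18, adjusted p = 0.0299), where 0.6% of all genes were higher and 0.0382% lower. It had medians of 10.53 CPM under AL and 14.99 CPM under RF, and without series 4 of Bmal1 KO RF it was at 0.137 (adjusted p = 1). The values there were 0.07 for Ppara, −0.13 for Creb3l3, 0.02 for Cpt1a, 0.45 for Cd36, 0.22 for Pdk4 and −0.39 for Acaa1b. In Cry WT edgeR called 0 of 37 (0.622% and 0.835% of all genes were higher and lower), with 15 at an unadjusted p under 0.05, while DESeq2 called 2 and limma-voom 0. The median there was 0.21, with 35 members above 0. Its values were 0.02 for Ppara, 0.51 for Ppargc1a (adjusted p = 0.16), 0.18 for Creb3l3, 0.26 for Cpt1a, 0.45 for Cd36, 0.10 for Pdk4 and 0.15 for Acaa1b.

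In Cry KO 1 member was higher and 2 lower under RF (4.35% and 9.04% of all genes). Fabp1 ran from 1235 to 5620 CPM (median 2773) under AL and from 1016 to 2416 CPM (median 1749) under RF, a fold of −1.03 ± 0.22 (adjusted p = 0.00131). Etfb was at −0.79 ± 0.20 (adjusted p = 0.00549) and Pdk4 at 0.78 ± 0.25 (adjusted p = 0.0324). Without series 2 of Cry KO AL 0 members were called, with Fabp1 at −0.242 (adjusted p = 0.695) and Etfb at 0.33 (adjusted p = 0.13). Without series 1 of Cry KO AL 24 were called. Pdk4 lost its call without series 3 of Cry KO RF (0.477, adjusted p = 0.352). The values of the others followed throughout were 0.34 for Ppara, 0.51 for Ppargc1a (adjusted p = 0.0613), −0.16 for Creb3l3, 0.03 for Cpt1a, 0.45 for Cd36 and −0.15 for Acaa1b. Of 6 hepatocyte markers, Cps1 (0.82, adjusted p = 0.000248) and Tat (0.71, adjusted p = 0.0171) were higher under RF and Apoa1 (−1.01, adjusted p = 0.000321) was lower. In the same comparison 2 of 4 exocrine pancreas markers were higher, and 2 of 3 neutrophil and 1 of 4 B and T cell markers were lower. The part of these markers in the member folds was not tested.

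The WT livers of the 2 lines differed under AL. In Cry WT AL 30 of 37 members were lower than in Bmal1 WT AL and 0 were higher (9.38% and 8.32% of all genes), with a median of −0.46, and 35 were below 0. Line, strain background and replicate series cannot be told apart in this comparison, and each of its groups is a control of a knockout comparison above. Acads ran from 112.1 to 137.3 CPM in Cry WT AL and from 145.2 to 210.8 CPM (median 165.9) in Bmal1 WT AL, without overlap, and was at −0.46 (adjusted p = 0.000665). Hadh, the short-chain 3-hydroxyacyl-CoA dehydrogenase, was at −0.57 (adjusted p = 6.86e-05), with 201.3 to 255.7 CPM against 243 to 419 CPM. The largest folds were those of Acot3 (−2.39 ± 0.47, adjusted p = 0.000511), Acot1 (−1.40 ± 0.37, adjusted p = 0.00625), Acot2 (−1.26 ± 0.24, adjusted p = 0.000424), Acaa1b (−1.07 ± 0.22, adjusted p = 0.000692) and Vnn1, a pantetheinase (−0.96 ± 0.31, adjusted p = 0.0273). Without series 8 of Bmal1 WT AL they were −0.917 for Acot3 (adjusted p = 0.428), −0.523 for Acot1 (adjusted p = 0.435), −0.588 for Acot2 (adjusted p = 0.119) and −0.143 for Vnn1 (adjusted p = 0.874). Acaa1b lost its call without series 2 of Cry WT AL (adjusted p = 0.0705), as did Creb3l3 (−0.32, adjusted p = 0.015, then 0.239) and Cd36 (−0.88 ± 0.26, adjusted p = 0.0129, then 0.138). Ppara (0.09, adjusted p = 0.799), Ppargc1a (0.10, adjusted p = 0.767), Cpt1a (−0.28, adjusted p = 0.107) and Pdk4 (−0.42, adjusted p = 0.236) were not called. Of the markers, 2 of 6 hepatocyte markers were lower in Cry WT AL, Alb (−0.51, adjusted p = 0.00724) and Ttr (−0.42, adjusted p = 0.0267), and 1 of 3 neutrophil markers was higher. Their part in the member folds was not tested. Cpt2, Acadm, Acads, Hadha, Hadhb, Hadh, Decr2 and Acaa1a were called without any single series, and Acads, Hadh, Echs1 and Acaa1a with the series as a random effect.

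Under RF no member was called different between the WT livers of the lines. edgeR called 0 of 37 (0.191% and 0.524% of all genes were higher and lower), with 2 at an unadjusted p under 0.05, and DESeq2 and limma-voom called 0. The median was 0.01. The values were −0.19 for Ppara, 0.17 for Ppargc1a, 0.15 for Creb3l3, 0.01 for Cpt1a, −0.50 for Cd36, −0.29 for Pdk4 and −0.60 ± 0.21 for Acaa1b (adjusted p = 0.233). The RF effect in Cry WT minus that in Bmal1 WT, a difference added after the data had been seen, was called for 18 members, all above 0 (6.79% of all genes), with a median of 0.47. Acot3 (1.96 ± 0.64, adjusted p = 0.0494), Eci1 (0.62, adjusted p = 0.0366), Acaa1a (0.61, adjusted p = 0.016), Cpt2 (0.61 ± 0.13, adjusted p = 0.00867) and Decr2 (0.59, adjusted p = 0.0208) had the highest values, and Creb3l3 was called too (0.47 ± 0.13, adjusted p = 0.0267). None of the 18 stood in all 8 fits that left out a single series, and none with the series as a random effect. The highest adjusted p-values were 0.791 for Acot3 without series 8 of Bmal1 WT AL, 0.122 for Acaa1a without series 6 of Cry WT RF, and 0.197, 0.0814, 0.155 and 0.167 for Eci1, Cpt2, Decr2 and Creb3l3 without series 2 of Bmal1 WT RF. Ppara (−0.27), Ppargc1a (0.07), Cpt1a (0.29), Cd36 (0.38), Pdk4 (0.13) and Acaa1b (0.47) were not called, with adjusted p-values from 0.295 to 0.937. The 6 hepatocyte markers had a median of 0.348 in this difference, with none called, and 1 of 4 cholangiocyte markers was higher. Their part in the member differences was not tested.

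Daily rhythms were fitted as a 24 h cosine per group, and a rhythm was called where the adjusted p was under 0.05 and peak and trough of the fit lay at least 0.5 log2 apart, a distance called the range below. In the WT groups 8 of 37 members were rhythmic in Bmal1 WT AL, 9 in Bmal1 WT RF, 6 in Cry WT AL and 10 in Cry WT RF. The shares of all genes were 7.98%, 10.7%, 5.74% and 15.8%. In the knockouts 0 were rhythmic in Bmal1 KO AL and 0 in Cry KO AL (0.273% and 0.0109%), 5 in Bmal1 KO RF and 2 in Cry KO RF (4.94% and 5.97%). For the zeros, edgeR had 3 and 2 members at an unadjusted p under 0.05, and limma-voom called 0 in both. The median range over all 37 members was 0.52 in Bmal1 WT AL and 0.15 in Bmal1 KO AL, 0.43 and 0.23 in Cry WT AL and KO AL, and between 0.38 and 0.48 in the 4 RF groups. Fitted peaks, called rhythmic or not, fell between ZT8 and ZT14, late in the light phase and early in the dark, for 31 members in Bmal1 WT AL, 26 in Bmal1 WT RF, 18 in Bmal1 KO AL and 32 in Bmal1 KO RF. In the Cry line they did so for 27 in Cry WT AL, 17 in Cry WT RF, 9 in Cry KO AL and 17 in Cry KO RF. Of the 37 members 24 were rhythmic in no group. Shares of all genes were not computed for this count or for the peaks between ZT8 and ZT14. In Bmal1 KO AL and Cry KO AL no such peak came from a called rhythm.

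**Figure D4:**
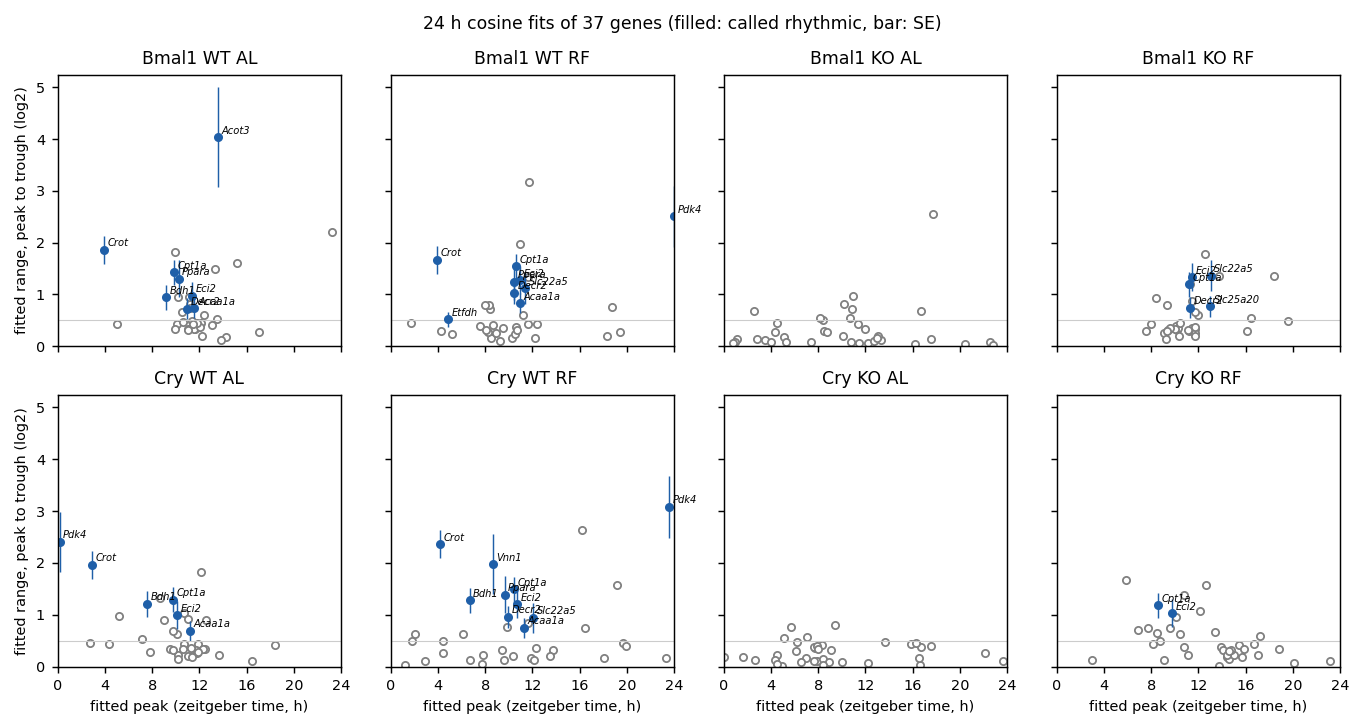
Fitted peak-to-trough range (y axis, log2) against fitted peak time (x axis, ZT in h) for the 37 members in each of the 8 groups, with filled points for members called rhythmic. Called members number 8, 9, 6 and 10 in the WT panels and 0, 5, 0 and 2 in the knockout panels, and most lie near ZT10 apart from Crot near ZT4 and Pdk4 near ZT0.

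Cpt1a and Eci2, an enoyl-CoA isomerase, were the members called rhythmic most often, in all 4 WT groups and both knockout groups under RF. In Bmal1 WT RF the 2 libraries of Cpt1a had 209.5 and 268.6 CPM at ZT0 and 699.4 and 744.3 CPM at ZT12. Its range was 1.43 ± 0.25 in Bmal1 WT AL (adjusted p = 9.25e-05), 1.54 in Bmal1 WT RF, 1.29 in Cry WT AL and 1.49 in Cry WT RF, with peaks from ZT9.77 to ZT10.6. In Bmal1 KO RF Cpt1a had a range of 1.197 and a peak at ZT11.2 (adjusted p = 0.00469), and in Cry KO RF a range of 1.18 and a peak at ZT8.54 (adjusted p = 0.00283). Under AL it was not called in Bmal1 KO (0.96, adjusted p = 0.146) or Cry KO (0.76, adjusted p = 0.508), and no difference of its rhythm between knockout and WT passed the test. The call stood without any single series in Bmal1 WT AL, Bmal1 WT RF and Cry WT RF. In Cry WT AL it was lost without series 4 (adjusted p = 0.241), in Bmal1 KO RF without series 4 (adjusted p = 0.643), and in Cry KO RF without series 3 (adjusted p = 0.274).

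Eci2 had 63.8 and 78.4 CPM at ZT0 and 152.1 and 257.7 CPM at ZT12 in Bmal1 KO RF, with a range of 1.33 and a peak at ZT11.5 (adjusted p = 0.0036), lost without series 4 (adjusted p = 0.277). Its ranges in the WT groups ran from 0.98 to 1.28, and it had 1.03 in Cry KO RF. Slc22a5, the carnitine importer, was called in Bmal1 WT RF (1.12, peak ZT11.4), Bmal1 KO RF (1.36, peak ZT13.0) and Cry WT RF (0.94, peak ZT12.1). Slc25a20 was called in Bmal1 KO RF alone (0.77, peak ZT13.0). Decr2 was called in Bmal1 WT AL, Bmal1 WT RF, Cry WT RF and Bmal1 KO RF with ranges from 0.72 to 1.03 and peaks from ZT9.92 to ZT11.3. In Bmal1 KO RF 0 of the 5 calls stood without series 4, where the adjusted p-values were 0.44 for Slc22a5, 0.51 for Slc25a20 and 0.51 for Decr2.

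Crot was called rhythmic in all 4 WT groups and in no knockout group, and it peaked earlier in the light phase than the other members named above. In Bmal1 WT AL its libraries had 794.8 and 1116 CPM at ZT4 and 215.3 and 271.2 CPM at ZT16. In Bmal1 KO AL they had 668.9 and 741 CPM at ZT4 and 649 and 684.8 CPM at ZT16, so the ZT16 libraries lay above both WT libraries. In Cry WT RF they had 858.8 and 1177 CPM at ZT4 and 171.4 and 198.9 CPM at ZT16, against 302.4 and 438.4, and 332.5 and 433.1 CPM in Cry KO RF. The range was 1.87 ± 0.27 in Bmal1 WT AL (adjusted p = 9.13e-06), 1.66 in Bmal1 WT RF, 1.96 in Cry WT AL and 2.36 ± 0.27 in Cry WT RF (adjusted p = 1.42e-08), with peaks from ZT2.90 to ZT4.16. In the knockouts the ranges of Crot under AL and RF were 0.52 and 0.80 in Bmal1 KO, and 0.48 and 0.75 in Cry KO.

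The difference of the Crot rhythm between knockout and WT passed the test in all 4 comparisons, with adjusted p = 0.0294 for Bmal1 under AL, 0.0205 for Bmal1 under RF, 0.0461 for Cry under AL and 0.000301 for Cry under RF. It was the only member called in the first 3, where 0.611%, 1.06% and 0.677% of all genes were called. With time as 6 levels it was called in none of those 3. With the compared groups fitted alone it lost its call for Bmal1 under RF and Cry under AL. It also lost its call for Bmal1 under RF in limma-voom without a series effect, and for Cry under AL without the libraries that stood apart. Each call held with the series as a random effect and was lost when some single series was left out. The highest adjusted p-values were 0.618 without series 8 of Bmal1 WT AL, 0.675 without series 2 of Bmal1 KO RF, 0.845 without series 2 of Cry WT AL and 0.0923 without series 6 of Cry WT RF. At ZT16 the 2 libraries of Crot in Bmal1 KO RF differed widely, with 1035 CPM in series 2 and 352.3 CPM in series 4.

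Bdh1 and Pdk4 were the other members whose rhythm differed, in Cry KO RF against Cry WT RF, where 3 members and 2.16% of all genes were called. Bdh1, the mitochondrial enzyme that converts acetoacetate to beta-hydroxybutyrate, had 218.2 and 221.9 CPM at ZT8 and 66.9 and 102.2 CPM at ZT20 in Cry WT RF. Its range was 1.28 with a peak at ZT6.67 there (adjusted p = 0.000481), 1.21 in Cry WT AL and 0.94 in Bmal1 WT AL, and from 0.14 to 0.34 in the knockouts. The difference had an adjusted p of 0.0214, and of 0.214 without series 5 of Cry KO RF. Pdk4 had 13.7 and 34.1 CPM at ZT0 and 2.20 and 2.69 CPM at ZT8 in Cry WT RF, and 16.9 and 47.8 CPM at ZT8 in Cry KO RF. Its range was 3.09 ± 0.60 with a peak at ZT23.6 in Cry WT RF (adjusted p = 0.000639), 2.51 ± 0.59 in Bmal1 WT RF and 2.403 in Cry WT AL, while in Bmal1 WT AL it was 2.20 (adjusted p = 0.0551) and in the knockouts from 0.28 to 0.74. The difference had an adjusted p of 0.0359, and of 0.414 without series 9 of Cry WT RF. In Bmal1 KO AL the Pdk4 libraries at ZT8 had 19.9 and 37.9 CPM, against 4.14 and 4.37 CPM in Bmal1 WT AL.

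**Figure D5:**
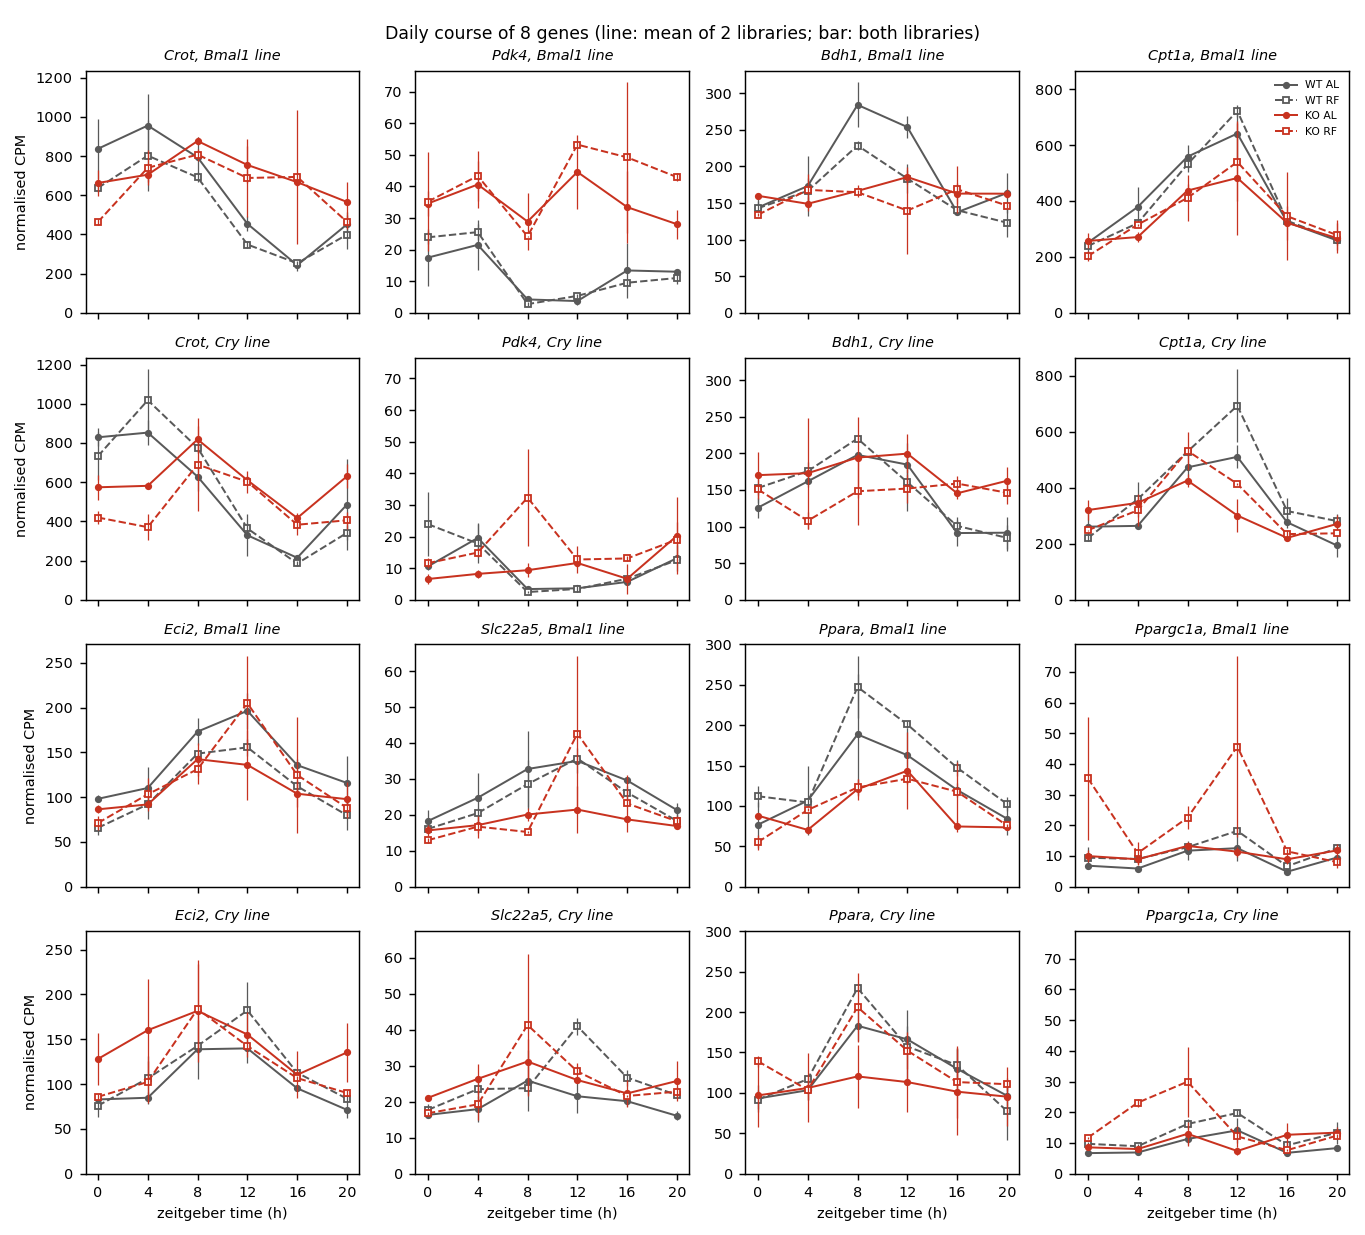
Level (CPM) of Crot, Pdk4, Bdh1, Cpt1a, Eci2, Slc22a5, Ppara and Ppargc1a against zeitgeber time (h) in the 8 groups, as means of the 2 libraries with bars that span both. Crot falls to 171.4 to 271.2 CPM at ZT16 in the WT groups and is at 332.5 CPM or more there in all knockout libraries, while Cpt1a rises toward ZT8 to ZT12 in most groups.

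Among the regulators, Ppara was rhythmic in Bmal1 WT AL (1.31, peak ZT10.2, adjusted p = 0.0297), Bmal1 WT RF (1.24, peak ZT10.4, adjusted p = 0.0296) and Cry WT RF (1.39, peak ZT9.64, adjusted p = 0.011). These calls were lost without series 8 of Bmal1 WT AL (adjusted p = 0.271), series 2 of Bmal1 WT RF (adjusted p = 0.466) and series 6 of Cry WT RF (adjusted p = 0.369). Ppargc1a, Creb3l3, Cd36 and Acaa1b were called in no group, and the lowest adjusted p of Ppargc1a was 0.0643 in Cry KO RF. Acaa1a was rhythmic in all 4 WT groups, with ranges from 0.68 to 0.83 and peaks from ZT10.9 to ZT11.6. Acot3 was called in Bmal1 WT AL (4.04, peak ZT13.6, adjusted p = 0.041), Vnn1 in Cry WT RF (1.97, peak ZT8.64) and Etfdh in Bmal1 WT RF (0.52, peak ZT4.83), and each of these 3 lost its call without a single series. Leaving out a series leaves a group with 6 libraries, 1 per time. No rhythm of the 37 members was called as different between RF and AL. In Bmal1 WT, Bmal1 KO, Cry WT and Cry KO, edgeR called 0 (0.0109%, 0%, 0.0982% and 0% of all genes), with 0, 0, 0 and 2 members at an unadjusted p under 0.05.

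A further list of 42 genes of the pathway, of which 40 were tested, holds transporters, acyl-CoA synthetases, other peroxisomal enzymes and regulators. In Bmal1 KO AL 5 were higher and 12 lower (10.9% and 9.48% of all genes), and in Bmal1 KO RF 5 and 6 (10% and 8.35%). In Cry KO AL 15 were higher and 3 lower (15.7% and 11.7% of all genes), and in Cry KO RF 2 and 1 (2.67% and 2.49%). The Cry KO AL values of this list come from both series together. Under RF against AL 2 were higher and 14 lower in Bmal1 WT (6.67% and 7.2% of all genes). In Cry WT AL against Bmal1 WT AL 1 was higher and 24 were lower (8.32% and 9.38%). The nuclear receptor Ppard, a relative of PPARA, rose in Bmal1 KO AL (1.67 ± 0.14, adjusted p = 5.95e-14) and Bmal1 KO RF (1.78 ± 0.14, adjusted p = 1.05e-14) and fell in Cry KO AL (−1.27 ± 0.15, adjusted p = 2.37e-09) and Cry KO RF (−0.80, adjusted p = 0.000134). Its range in the WT groups was 2.68 to 3.15 with peaks from ZT22.2 to ZT22.9, and its rhythm differed from WT in all 4 knockout groups (adjusted p from 0.000798 to 0.0205). Hacl1, a peroxisomal enzyme of alpha-oxidation, rose in Bmal1 KO AL (0.54) and Bmal1 KO RF (0.79). Numbers of rhythmic genes in this list were 8, 11, 5 and 9 in Bmal1 WT AL, Bmal1 WT RF, Cry WT AL and Cry WT RF. The shares of all genes there were 7.98%, 10.7%, 5.74% and 15.8%. In the matching knockouts the numbers were 0, 5, 0 and 5, with shares of 0.273%, 4.94%, 0.0109% and 5.97%.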

How the data were processed

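Liver mRNA libraries were made with the TruSeq Stranded mRNA kit, per the labels' protocols, and aligned with STAR 2.4.0i to mm10, per the submitters' processing notes. The deposited table holds raw counts per Ensembl gene and library, without normalisation by the authors. For the counting program, the annotation and the use of strand, nothing is given in the sources used here. GENCODE M21 gave a symbol for 55154 of 55421 identifiers, with 0.0449% of counts in the other 267.

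Counts were fitted with edgeR 4.0.16 in R 4.3.3 after TMM scaling, keeping genes that passed filterByExpr (minimum count 10, minimum total 15), which held 99.97% of counts. All 96 libraries entered 1 fit with a mean for each of 48 cells of group and time, and a second fit with a 24 h cosine per group. Rhythm differences were joint tests of both cosine terms. All tests are two-sided, with adjustment over all genes tested within each comparison. Limma 3.58.1 (voom) and DESeq2 1.42.0 served as alternatives. Errors given are standard errors of the fit, from the spread between libraries. In every comparison values are given for Ppara, Ppargc1a, Creb3l3, Cpt1a, Cd36, Pdk4 and Acaa1b. Beside them up to 5 called members at each end of the folds and up to 6 rhythmic members by range were named, and members outside this rule that are named were chosen after their values were seen. Other genes of the pathway were named by smallest p. Marker lists covered hepatocytes, 5 Kupffer cell genes, endothelial, stellate, cholangiocyte, B and T, neutrophil, adipocyte, muscle, exocrine pancreas and erythroid genes. The members and lists were chosen with earlier results of these data known. Alternatives added after the data were seen were filterByExpr by group and the 3 differences between lines.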

Additional observations from a re-analysis of the deposited data

Results flagged for a closer look

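Some effects differed between the lines by a test of the difference itself, and these values (Cry line minus Bmal1 line, log2) are given without explanation. For the knockout effect under AL they were Pdk4 −1.45, Cd36 −1.30, Creb3l3 0.739, Fabp1 1.75, Acot4 1.83, Acaa1b 1.98, Acot1 2.36 and Acot3 6.24. For the knockout effect under RF they were Cd36 −1.69, Pdk4 −1.02, Etfdh −0.333, Ehhadh 0.686, Fabp1 0.971, Acot4 1.32, Acaa1b 1.75 and Acot3 3.21. For the RF effect in WT livers they were Creb3l3 0.473, Decr2 0.588, Cpt2 0.607, Acaa1a 0.609, Eci1 0.62 and Acot3 1.96, and none of these 6 was called with the series as a random effect. Fitted that way, Acot1 was not called under AL, and under RF only Cd36 and Acaa1b of the 8 were.

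Rhythms that differed between knockout and WT were those of Crot (adjusted p = 0.0294 and 0.0205 in the Bmal1 line under AL and RF, 0.0461 and 0.000301 in the Cry line), Bdh1 (adjusted p = 0.0214) and Pdk4 (adjusted p = 0.0359), the last 2 in the Cry line under RF by edgeR's joint test.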

How the results depend on the processing

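Counts of called members are given here as the alternative after the reported value, and the cause of each change was not tested beyond the fewer libraries of some fits. With the series as a random effect the knockout counts fell from 19 to 9 and 15 to 6 (Bmal1, AL and RF) and from 23 to 1 and 3 to 0 (Cry). The RF counts went from 14 to 0 (Bmal1 WT), 1 to 0 (Bmal1 KO) and 3 to 0 (Cry KO), the WT lines under AL from 30 to 4, the differences between knockout effects from 26 to 17 (AL) and 9 to 2 (RF), that between RF effects from 18 to 0, and rhythms in Cry KO RF from 2 to 4. Without the filter on low counts, calls rose to 9 (Cry KO RF), 6, 7 and 13 (RF in Bmal1 KO, Cry WT and Cry KO), 2 (WT lines, RF), 3 and 11 (Bmal1 and Cry knockout effects, RF minus AL). Rhythms rose to 16, 14, 4 and 11 in Bmal1 WT AL, WT RF, KO AL and KO RF, and to 13, 2 and 10 in Cry WT AL, KO AL and KO RF, and rhythm differences to 7, 7, 4 and 10 for knockouts and to 2, 2, 2 and 4 for feeding. DESeq2 gave 5 (Cry KO RF), 2, 2 and 6 (RF in Bmal1 KO, Cry WT and Cry KO) and 5 (Cry knockout effect, RF minus AL). The compared groups alone gave 9 (Cry KO AL), 0, 7 and 0 (RF in Bmal1 KO, Cry WT and Cry KO), rhythms of 3 (Bmal1 WT AL) and 0 (Bmal1 KO RF), and rhythm differences of 0 (Bmal1 RF, Cry AL). Without the libraries that stood apart 9 were called in Bmal1 KO RF, 0 and 2 for RF in Bmal1 KO and Cry WT, rhythms of 3 in Bmal1 KO RF and 3 in Cry WT AL, and rhythm differences of 0 (Cry AL) and 1 (Cry RF). With time as 6 levels rhythms were 4, 4, 3 and 5 in Bmal1 WT AL, WT RF, KO RF and Cry WT RF, and rhythm differences 0, 0 and 0 (Bmal1 AL and RF, Cry AL). RLE size factors gave 7 for RF in Bmal1 WT. Limma-voom gave 0 for RF in Bmal1 KO, 3 rhythms in Bmal1 KO RF and 0 rhythm differences in Bmal1 RF. Filtering by group gave 5 for RF in Cry KO and 3 rhythms in Bmal1 KO RF. With the series as a random effect, calls of mean level over all genes fell as well. They went from 3730 to 1361 and 3364 to 1277 for the Bmal1 knockout under AL and RF. For the Cry knockout they went from 5021 to 1128 and 947 to 184. RF in Bmal1 WT went from 2542 to 0, and the WT lines under AL from 3244 to 114. The other counts of alternatives here are of members alone.

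Leaving out each series gave 10 to 15 and 7 to 14 calls (Bmal1 KO, AL and RF), 2 to 29 and 0 to 4 (Cry KO), 0 to 5, 0 to 3, 0 to 2 and 0 to 24 (RF in Bmal1 WT, Bmal1 KO, Cry WT and Cry KO), 14 to 24 (WT lines, AL), 0 to 23 (Cry knockout effect, RF minus AL), 18 to 30 and 5 to 9 (difference between knockouts) and 0 to 9 (RF effects). Rhythms ranged over 1 to 2 (Bmal1 WT AL and WT RF), 0 to 4 (Bmal1 KO RF), 1 to 2 and 5 to 6 (Cry WT AL and RF) and 0 to 0 (Cry KO RF), and rhythm differences over 0 to 0 (Bmal1 AL) and 0 to 1 (Bmal1 RF, Cry AL and Cry RF). Without series 2 of Cry KO AL, Etfb reversed in Cry KO AL (−0.10, adjusted p = 0.804, against 1.70 without series 1) and for RF in Cry KO (0.33, adjusted p = 0.13, against −1.47 without series 1). Among called members outside the naming rule, Fabp1 (−0.144), Echs1 (−0.0736), Eci1 (−0.0616) and Etfa (−0.0501) also changed sign in Cry KO AL without that series. For the members named by the rule in each comparison, 2141 values kept side and direction, 46 gained a call, 315 lost one and 2 reversed.

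The replicate block for the Bmal1 line left 19 and 15 knockout calls and 1 and 1 rhythm differences. Its numbers were not taken to pair libraries, since the series differences of WT and KO correlated at −0.0756 to 0.256 over the 12 cells. Acot3 had as few as 2 counts in a library.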
